A study of Mus musculus with 4 samples.

Results

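A set of 9 genes that make, break down, bind or sense retinoic acid were followed in mouse periodontal ligament (PDL), the fibrous tissue between tooth root and jaw bone. They were chosen by name as Rdh10, Aldh1a1, Aldh1a2, Aldh1a3, Cyp26a1, Cyp26b1, Crabp1, Crabp2 and Rarb, with results of these arrays already in view. Of these 9 genes, 8 had a probe that matched by its RefSeq accession, out of 22907 genes on the array. Crabp2, which encodes a carrier that hands retinoic acid to its receptors in the nucleus, had none and was not analysed here. The probe with the highest mean signal stood for its gene.

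The tissue came from Mkx-KO mice of 10 weeks, WT mice of 10 weeks, Mkx-KO mice of 4 weeks and WT mice of 4 weeks. Mkx-KO mice are knocked out for Mkx, which encodes the tendon and ligament transcription factor Mohawk; the labels give no further allele, strain, sex or treatment. RNA of each group was labelled with Cy3 and read on 1 one-colour Agilent array. Each group therefore had 1 array, the number of mice behind each preparation is not given in the sources used here, and every difference describes these 4 arrays with no p-value. Because the genes were chosen with these contrasts known, nothing was tested.

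Retinoic acid is a vitamin A derivative that cells make, use and destroy locally. The dehydrogenase Rdh10 turns retinol into retinal, and the Aldh1a enzymes turn retinal into retinoic acid. Cellular carriers of the Crabp family hold it in the cytoplasm, Cyp26 enzymes oxidise it, and receptors such as Rarb bind it on DNA and switch target genes, among them Cyp26a1 and Rarb themselves. In developing teeth and jaw bone, both excess and lack of vitamin A are known to disturb growth.

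A level is the log2 of a processed signal after subtraction of the log2 of the 75th percentile on the same array, and a difference is a log2 difference of levels, Mkx-KO minus WT or 10 minus 4 weeks. The technical error of a difference joins the errors that the scanner software estimated for the spots, and does not cover mice. It was between 0.204 and 0.205 for every measured difference except that of Cyp26a1. A gene was measured in a comparison when its probe was well above background on both arrays, and called when it was then at least 2-fold apart. Of the 8 genes, 7 were well above background on all arrays, and Cyp26a1 on both arrays of 4 weeks only. Levels of different genes come from different probes and were not set against each other.

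The Mkx-KO array of 4 weeks stood apart from the others in transcripts of neighbouring tissues. The 12 nasal gland markers summed to 2315 times the 75th percentile in Mkx-KO and 1788 in WT at 10 weeks, and to 3.45 in Mkx-KO and 685 in WT at 4 weeks. The sums rest on a few bright genes: at 10 weeks 8 of the 12 were lower in Mkx-KO, 6 of them at least 2-fold and 1 gene at least 2-fold higher, with a median difference of -1.65. Of all genes, 1.37% were called lower and 1.04% higher at 10 weeks. On the Mkx-KO array of 4 weeks 3 of these 12 were not well above background, among them Bpifb9b, whose difference from WT had no measured value, while Mup4 differed by -9.74. The 9 olfactory sensory neuron markers summed to 40.0 in Mkx-KO and 48.0 in WT at 10 weeks, and to 1.34 and 41.8 at 4 weeks; on that Mkx-KO array 5 of them missed the background limit, while Omp and Gng13 differed by -8.13 and -6.30 there. The 10 skeletal muscle markers summed to 194 in Mkx-KO and 146 in WT at 10 weeks, and to 44.3 and 110 at 4 weeks, with Tnnc2 at -1.29 and Tnnt3 at -1.27.

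Epithelial markers moved with genotype in opposite directions at the 2 ages. The 14 genes summed to 563 in Mkx-KO and 1007 in WT at 10 weeks, with 13 of 14 lower in Mkx-KO, and to 713 and 409 at 4 weeks, with 13 of 14 higher. Krt14 differed by -0.83 and 0.74 at 10 and 4 weeks, and Krt6a by -0.96 and 0.97. The 5 salivary gland markers with a probe summed to 9.09 in Mkx-KO and 8.34 in WT at 10 weeks, and to 1.25 and 4.13 at 4 weeks, with Pip at -4.62 and Aqp5 at -0.49 at 4 weeks. Of 8 forebrain neuron markers, 6 were called higher in Mkx-KO at 10 weeks, and 6 of the 7 measured at 4 weeks were called lower. Of all genes, 1.04% were called higher at 10 weeks and 3.31% lower at 4 weeks. Syt1 differed by 1.13 and -4.58, and Snap25 by 0.14 and 0.20. The 11 ligament fibroblast markers were well above background on every array and summed to 2967 to 3158 on the 4 arrays. These sums rest on the brightest genes, with Col1a2 at 0.20 and -0.03 and Col1a1 at 0.14 and 0.05 for genotype at 10 and 4 weeks. Over the 11 genes, genotype differences ran from -0.28 to 0.71 at 10 weeks and from -0.35 to 0.43 at 4 weeks. By age, 7 of 11 were lower at 10 weeks in Mkx-KO and 10 of 11 in WT, where Scx was lowest at -1.22. Mkx itself was at -1.26 in Mkx-KO and 0.84 in WT at 10 weeks, and at -0.57 and 1.08 at 4 weeks. In whole tissue, fewer cells of a type and less RNA per cell cannot be told apart.

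**Figure D1:**
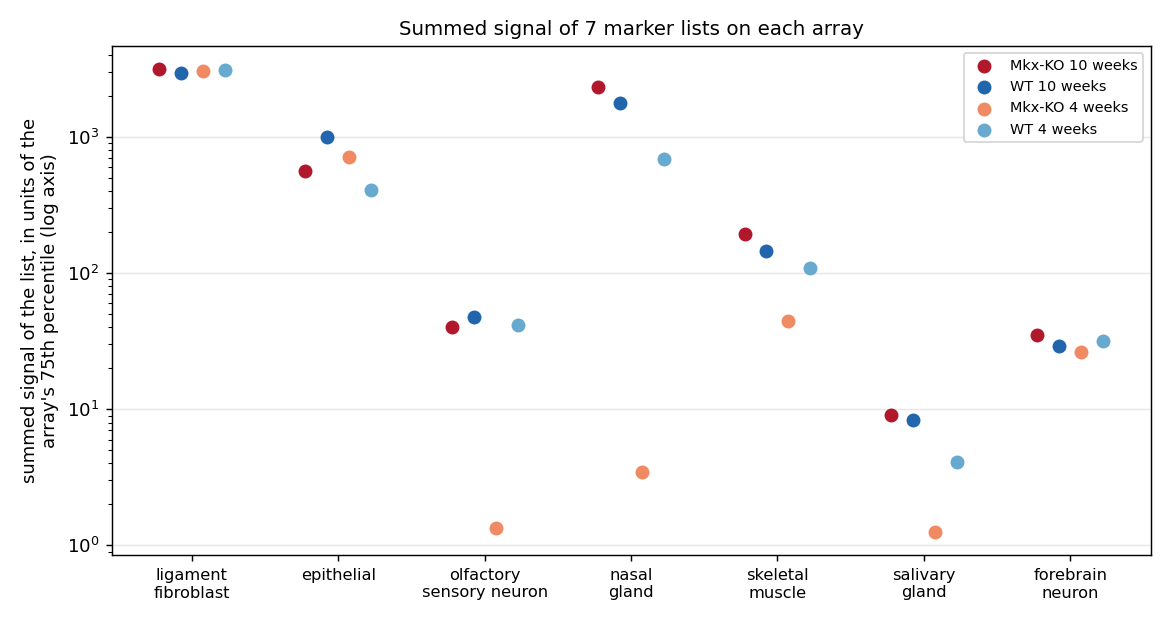
Summed signal of 7 lists of marker genes on each array, in multiples of that array's 75th percentile, on a log axis; each point is 1 array. The ligament fibroblast sums lie between 2967 and 3158, whereas the nasal gland sum of the Mkx-KO array of 4 weeks is 3.45.

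The widest genotype difference among these genes was that of a breakdown enzyme in young tissue, except under normexp background correction, where Aldh1a1 at -1.15 was wider than Cyp26a1 at 0.86. Cyp26a1, which encodes the enzyme that clears retinoic acid and is itself induced by it, had processed signals of 5.97 in Mkx-KO and 5.92 in WT at 10 weeks, neither well above background, and of 112 in Mkx-KO and 22.5 in WT at 4 weeks. Its levels were -1.36 in Mkx-KO and -3.57 in WT at 4 weeks, so that Mkx-KO lay 2.21 above WT (technical error 0.27). It ranked 3 of the 15682 genes measured at 4 weeks, counted from the highest difference, and this value helped to choose it. Only the young tissue gave a measurable signal, and there the Mkx-KO array was the brighter.

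The Cyp26a1 probe (A_52_P382149) had 1 spot on each array, and its raw pixels show how small the signal was. The median pixel of the spot read 44 in Mkx-KO and 41 in WT at 10 weeks, over local backgrounds of 30 and 32. At 4 weeks it read 134.5 in Mkx-KO and 57 in WT, both over a local background of 32. With normexp background correction and an offset of 50, the difference at 4 weeks was thus under 2-fold; this method adds a constant to the signal, which shrinks differences of dim spots. The 66 spots around it were shifted by 0.11 in Mkx-KO and 0.06 in WT at 4 weeks relative to the mean of the other arrays. Whether a local artefact touched this spot was not tested.

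The promoters of Cyp26a1 and Rarb are shown because both hold a repeat of the kind that retinoic acid receptors are known to bind, while the RNA of only the first differed by genotype beyond its technical error at 4 weeks. The repeat has 2 hexamers, each being AGGTCA, or else AGTTCA, or likewise GGGTCA, or finally GGTTCA, in the same orientation and 5 bases apart (DR5), and both strands were searched. RefSeq windows of 300 bases on build GRCm38.p6, 250 before and 50 after the annotated start, were available for 6 of the 9 genes. Each is written 5′ to 3′ on the strand of the gene, with the hexamers in capitals.
Cyp26a1 promoter, chr19:37697558-37697857, plus strand: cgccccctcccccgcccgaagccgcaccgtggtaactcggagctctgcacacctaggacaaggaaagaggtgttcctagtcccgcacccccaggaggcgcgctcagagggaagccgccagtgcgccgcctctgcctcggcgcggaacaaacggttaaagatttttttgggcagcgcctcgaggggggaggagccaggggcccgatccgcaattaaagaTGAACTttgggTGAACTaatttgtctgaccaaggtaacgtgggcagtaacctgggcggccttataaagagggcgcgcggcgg
Rarb promoter, chr14:16575427-16575726, minus strand: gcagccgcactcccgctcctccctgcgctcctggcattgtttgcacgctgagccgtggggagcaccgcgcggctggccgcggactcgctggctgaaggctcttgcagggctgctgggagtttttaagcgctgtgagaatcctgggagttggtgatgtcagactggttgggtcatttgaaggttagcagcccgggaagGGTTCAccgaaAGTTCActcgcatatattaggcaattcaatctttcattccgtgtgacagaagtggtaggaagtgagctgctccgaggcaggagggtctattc

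In Cyp26a1 the repeat spans bases 32 to 16 before the start and reads along the opposite strand, and in Rarb it spans bases 53 to 37 before the start on the strand of the gene. Written in the same direction the 2 copies compare as follows.
Cyp26a1 DR5: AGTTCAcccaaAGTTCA
Rarb DR5: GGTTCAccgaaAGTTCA
A DR5 of this kind was found in 32 of 32851 such windows (0.0974%). The windows of Aldh1a1, Aldh1a2, Crabp1 and Cyp26b1 held none, which says only that these letters are not in these windows. Apart from Cyp26a1 and Rarb, genes with a DR5 in their window were called by genotype in 1 of 6 measured at 10 weeks and 0 of 5 at 4 weeks, against 2.41% and 3.78% of all genes. By age they were called in 1 of 5 in Mkx-KO and 2 of 6 in WT, against 10.1% and 8.84%. The called genes, named after their values were seen, were the protease gene Prss27, at -2.35 for genotype at 10 weeks and 2.12 for age in WT, and the chemokine gene Ppbp, at 1.68 and 1.79 for age.

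Cyp26b1, which encodes the Cyp26 enzyme known for limiting retinoic acid in the developing face and skeleton, was well above background on all arrays (A_51_P501844). Its level was 2.90 in Mkx-KO and 3.07 in WT at 10 weeks, and 3.67 in Mkx-KO and 3.03 in WT at 4 weeks. The difference was -0.17 at 10 weeks, within 1 technical error, and 0.64 at 4 weeks. The Mkx-KO array of 4 weeks was the highest, and the other 3 arrays followed each other by less than 1 technical error. Cyp26c1, of the same family, was not well above background on any array. Cyp26a1 and Cyp26b1 were both higher in Mkx-KO at 4 weeks, the former past 2-fold and the latter under it. Epithelial markers were also higher on that array than in WT, with a median difference of 0.71; their part in this result was not tested.

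**Figure D2:**
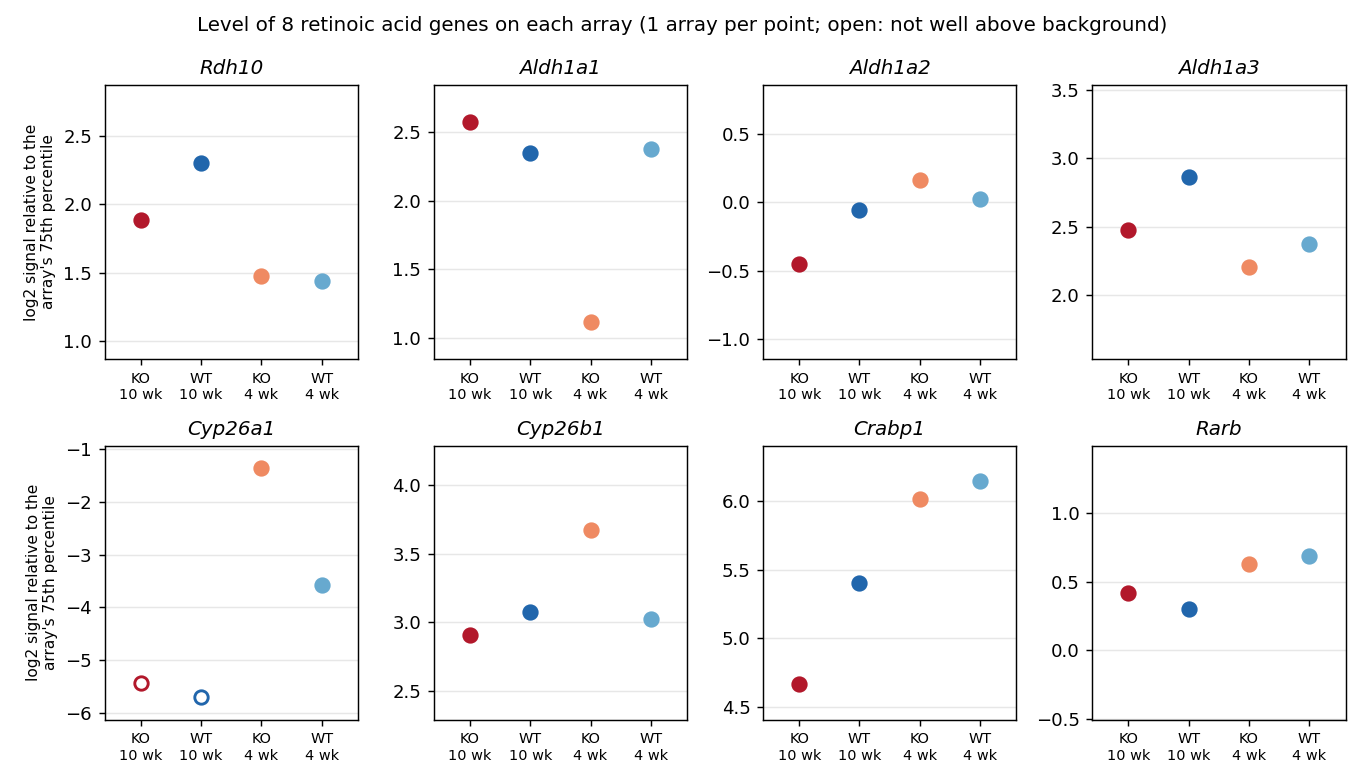
Level of 8 genes on each array, as log2 signal minus that of the 75th percentile; each point is 1 array, open points are not well above background, and the Cyp26a1 axis spans a wider range than the others. Aldh1a1 is lowest, at 1.12, and Cyp26b1 highest, at 3.67, on the Mkx-KO array of 4 weeks, while Crabp1 is lowest on the Mkx-KO array of 10 weeks.

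Among the enzymes of synthesis, Aldh1a1 differed most between the genotypes. It encodes a retinal dehydrogenase of many adult epithelia (A_51_P334942), and its level was 2.57 in Mkx-KO and 2.35 in WT at 10 weeks, and 1.12 in Mkx-KO and 2.38 in WT at 4 weeks. The Mkx-KO array of 4 weeks was low and the other 3 lay close together, each within 1 technical error of the next. The difference was 0.22 at 10 weeks and -1.26 at 4 weeks. The low array is also the one that was low in nasal, olfactory and skeletal muscle markers. Muscle markers had a median difference of 0.44 at 10 weeks and -1.26 at 4 weeks, and forebrain neuron markers of 1.999 and -2.91, over 8 and 7 measured genes. Nasal gland markers had medians of -1.65 and -5.10, over 12 and 9 measured genes. Olfactory sensory neuron markers had medians of -0.15 and -3.65, over 9 and 4. Both of these lists were thus below 0 at 10 weeks, where Aldh1a1 was above 0. Epithelial markers went the other way from Aldh1a1 at both ages, with medians of -0.72 at 10 weeks and 0.71 at 4 weeks. The part of these markers in this result was not tested. Rap1gap2, the muscle myosin light chain gene Mylpf and the extracellular matrix gene Reln, itself 1 of the 8 forebrain neuron markers, were nearest to Aldh1a1 in pattern over the 4 arrays, at distances of 0.12, 0.15 and 0.16 among 15499 genes, each level centred on its own mean.

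Aldh1a2, which encodes the main retinal dehydrogenase of the embryo (A_52_P58145), was at -0.45 in Mkx-KO and -0.05 in WT at 10 weeks, and at 0.16 in Mkx-KO and 0.03 in WT at 4 weeks. The difference was -0.39 at 10 weeks and 0.13, within 1 technical error, at 4 weeks. Aldh1a3, known for making retinoic acid in the developing nose and eye, was at 2.48 in Mkx-KO and 2.86 in WT at 10 weeks, and at 2.21 in Mkx-KO and 2.37 in WT at 4 weeks (A_52_P87843). Its differences were -0.38 and -0.16, the second within 1 technical error. WT at 10 weeks was its highest array.

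Rdh10, which encodes the enzyme of the first oxidation step (A_55_P2911376), was at 1.89 in Mkx-KO and 2.30 in WT at 10 weeks, and at 1.48 in Mkx-KO and 1.44 in WT at 4 weeks. Its difference was -0.41 at 10 weeks and 0.04 at 4 weeks, so the 2 arrays of 4 weeks were level within the technical error. At 10 weeks Rdh10, Aldh1a2 and Aldh1a3 were thus each lower in Mkx-KO by more than 1 technical error, and under 2-fold. Epithelial and nasal gland markers were lower on the same array by their medians, at -0.72 and -1.65. At 4 weeks these medians were 0.71 and -5.10, the second over the 9 of 12 nasal gland markers measured there. Rdh10, Aldh1a2 and Aldh1a3 were each within 1 technical error at 4 weeks. The part of these markers in these results was not tested. Gipc2 and Agps were among the genes nearest to Rdh10 in pattern, at distances of 0.05 and 0.06.

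Binding and sensing of retinoic acid were read by Crabp1 and Rarb. Crabp1 encodes a cytoplasmic carrier of retinoic acid. Its brightest probe (A_66_P112360) was printed 10 times on every array. The 10 spots read 6342 to 6920 in Mkx-KO and 12535 to 13818 in WT at 10 weeks, and 17769 to 19388 in Mkx-KO and 18171 to 19434 in WT at 4 weeks. Before scaling, the spots of the 2 arrays of 10 weeks did not overlap, and those of the 2 arrays of 4 weeks did. The 75th percentile used for scaling was 287 in Mkx-KO and 267 in WT at 4 weeks. The overlap at 4 weeks therefore does not carry over to levels. The mean level was 4.67 ± 0.04 in Mkx-KO and 5.40 ± 0.05 in WT at 10 weeks, and 6.02 ± 0.04 in Mkx-KO and 6.15 ± 0.03 in WT at 4 weeks, where ± is the SD of the 10 spots and not of mice.

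The difference of Crabp1 was -0.74 at 10 weeks and -0.13 at 4 weeks. A second probe (A_52_P185907) gave -0.57 and -0.10. The Crabp1 value at 10 weeks was the lowest of the 7 genes measured there and was under 2-fold. Epithelial markers had median differences of -0.72 at 10 weeks and 0.71 at 4 weeks. Nasal gland markers had medians of -1.65 over 12 measured genes and -5.10 over 9. The part of these markers in the Crabp1 result was not tested. Igf2, the gene of a fetal growth factor, Flywch2 and Pcbd1 were nearest to Crabp1 in pattern, at distances of 0.24, 0.24 and 0.26.

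Rarb, the gene of retinoic acid receptor beta and a classical target of retinoic acid, varied little on its brightest probe (A_51_P202440), at 0.42 in Mkx-KO and 0.30 in WT at 10 weeks, and at 0.63 in Mkx-KO and 0.69 in WT at 4 weeks. Its differences of 0.12 and -0.06 were within 1 technical error. A second probe (A_55_P2730981) gave -0.19 and -0.02, and the dimmest (A_55_P2099585) was well above background on the Mkx-KO array of 10 weeks only. Cyp26a1 and Rarb each have a DR5 in their window, with different letters and orientation, and at 4 weeks their differences were 2.21 and -0.06.

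**Figure D3:**
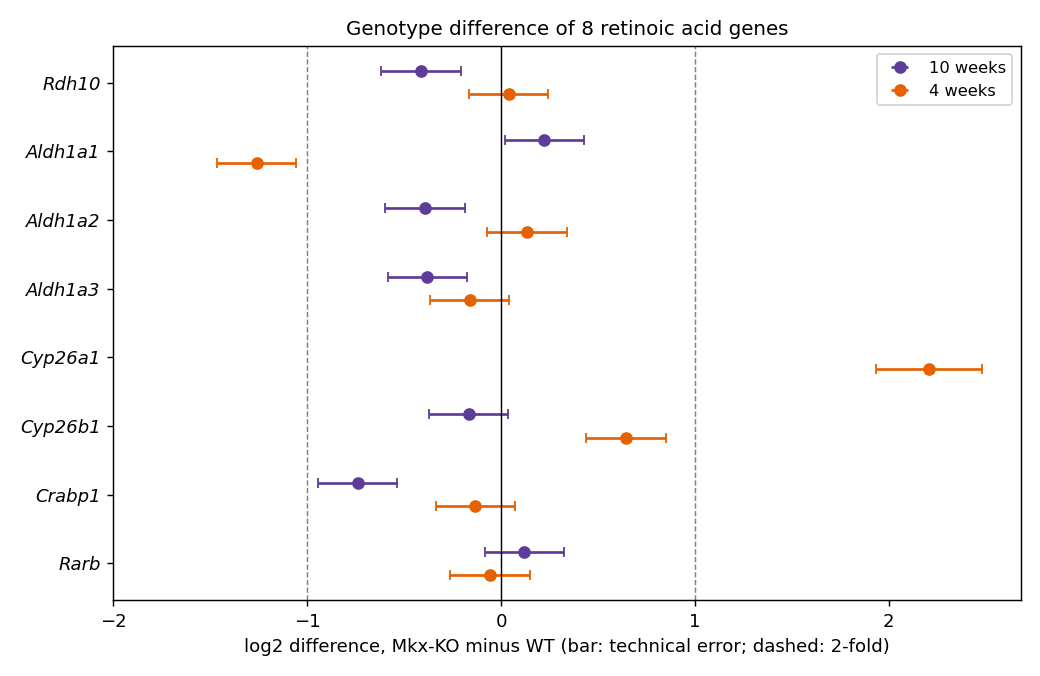
Log2 difference between Mkx-KO and WT of 8 genes at 10 and 4 weeks; each point is 1 pair of arrays, bars are technical errors and dashed lines mark 2-fold. Cyp26a1, drawn at 4 weeks only, lies at 2.21 and Aldh1a1 at -1.26, and every difference at 10 weeks is under 2-fold.

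Counted over the genes, 0 of 7 measured genes were at least 2-fold apart by genotype at 10 weeks, where 2.41% of all genes were (1.04% higher and 1.37% lower). At 4 weeks 2 of 8 were, against 3.78% of all genes (0.472% higher and 3.31% lower), namely Cyp26a1 on the higher side and Aldh1a1 on the lower side. The genes were picked with these contrasts in view, so nothing is read from these shares. The call threshold fell between Aldh1a1 at -1.26 inside and Crabp1 at -0.74 and Cyp26b1 at 0.64 outside.

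The age comparisons use the same 4 arrays as the genotype comparisons and are no separate evidence. Cyp26a1 was not well above background at 10 weeks in either genotype and could only be bounded. Set there to the dimmest level that still passed the background limit, its processed signal was at least 10.1-fold lower at 10 than at 4 weeks in Mkx-KO and at least 2.51-fold lower in WT. These bounds rest on 1 spot per array. They were not recomputed under another background correction or from raw pixels, and are no limits there. Crabp1 differed by -1.35 in Mkx-KO and -0.74 in WT, so that it was lower in the older tissue of both genotypes. Its second probe gave -1.34 and -0.87.

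The enzymes of synthesis did not share a direction with age. Rdh10 differed by 0.41 in Mkx-KO and 0.86 in WT, and Aldh1a3 by 0.27 and 0.49, higher at 10 weeks in both genotypes. Aldh1a1 differed by 1.45 in Mkx-KO, where the array of 4 weeks was low, and by -0.03 in WT. In Mkx-KO, Aldh1a2 differed by -0.61 and Cyp26b1 by -0.77, and in WT they differed by -0.08 and 0.04. Rarb differed by -0.21 in Mkx-KO and -0.39 in WT, and its second probe, well above background on all arrays, by -0.47 and -0.30. Its dimmest probe, at signals near background, gave 1.68 and 1.88, and the mean over its 3 probes 0.33 and 0.40. The median difference of all genes was -0.15 in Mkx-KO and -0.10 in WT.

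**Figure D4:**
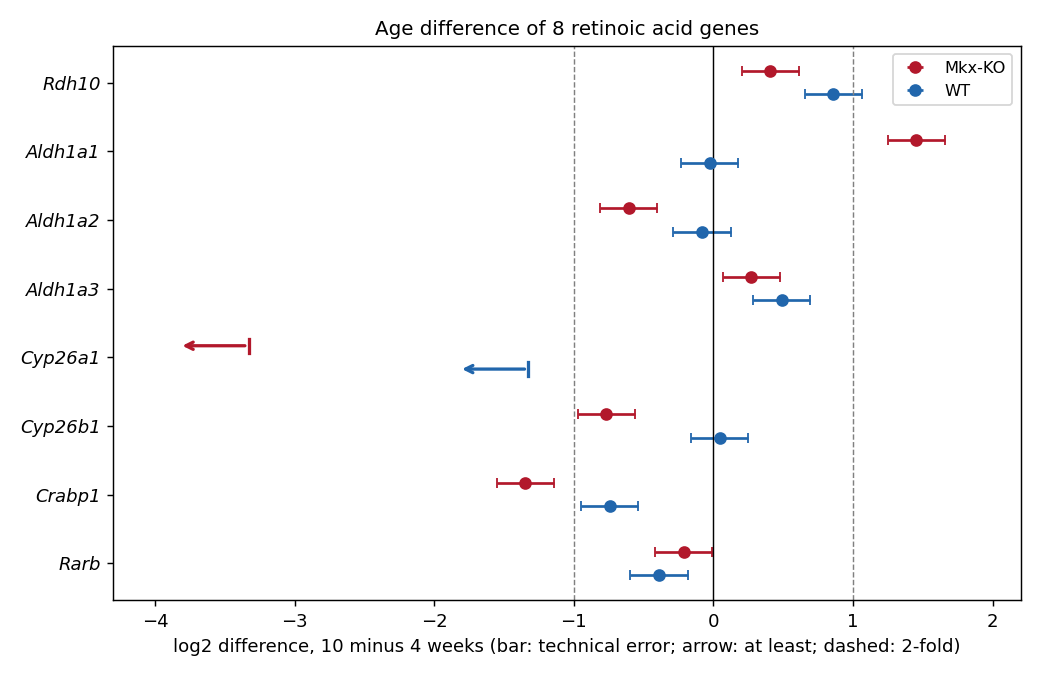
Log2 difference between 10 and 4 weeks of 8 genes in Mkx-KO and WT; each point is 1 pair of arrays, bars are technical errors, dashed lines mark 2-fold and arrows start at the bound of Cyp26a1. Crabp1 lies at -1.35 and -0.74, and Aldh1a1 at 1.45 in Mkx-KO and -0.03 in WT.

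At least 2-fold apart by age were 2 of 7 measured genes in Mkx-KO, against 10.1% of all genes (6.25% higher and 3.84% lower), namely Aldh1a1 on the higher and Crabp1 on the lower side. In WT 0 of 7 were, against 8.84% (5.01% higher and 3.83% lower). Nasal gland markers were at least 2-fold higher at 10 weeks for 9 of 9 measured genes in Mkx-KO and 11 of 12 in WT, and skeletal muscle markers for 10 of 10 and 3 of 10. In WT, where Rdh10 and Aldh1a3 were also higher at 10 weeks, epithelial markers were higher for 14 of 14, 8 of them at least 2-fold, with a median of 1.11, and in Mkx-KO their median was -0.38. Forebrain neuron markers were at least 2-fold lower at 10 weeks for 6 of 8 in WT, with a median of -2.98, and at least 2-fold higher for 6 of 7 in Mkx-KO, with a median of 1.99. Their part in the age differences was not tested.

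The wider set of retinoid genes was read from 3 lists drawn up by function, with earlier results of these arrays known. Of 28 genes of retinoid uptake, storage and other enzymes, 20 were measured at 10 weeks, with 0 at least 2-fold higher and 1 lower in Mkx-KO, and 19 at 4 weeks, with 0 higher and 2 lower. Of all genes, 1.04% were called higher and 1.37% lower at 10 weeks, and 0.472% and 3.31% at 4 weeks. The medians were -0.08 and 0.25, against 0.01 and 0.06 for all genes. Adh1, an alcohol dehydrogenase that also oxidises retinol, was at 0.34 in Mkx-KO and 1.44 in WT at 10 weeks, and at -3.11 in Mkx-KO and -0.41 in WT at 4 weeks. Its differences were thus -1.10 and -2.70. Its second probe gave -1.10 and -1.72, and there was not well above background in Mkx-KO at 4 weeks.

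Aldh1a7, a close relative of Aldh1a1 in rodents, differed by -0.22 at 10 weeks and -1.09 at 4 weeks. The 2 genes are alike in sequence, and which of them each probe reads is uncertain. Their levels and that of Adh1 were lowest on the Mkx-KO array of 4 weeks, which was low in nasal markers. Among genes named for an age difference of at least 2-fold, the retinal reductase gene Rdh12 differed by -1.58 in Mkx-KO and -1.46 in WT, the alcohol dehydrogenase gene Adh7 by 0.69 and 1.51, and the retinol dehydrogenase gene Dhrs9 by 0.94 and 1.39. Named after its values were seen, Fabp5, whose protein can carry retinoic acid to another nuclear receptor, differed for genotype by -0.83 at 10 weeks and 0.48 at 4 weeks, as epithelial markers did in sign.

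All 12 receptor and cofactor genes were measured at both ages, and 0 were at least 2-fold apart by genotype or by age. Of all genes, 2.41% and 3.78% were called by genotype at 10 and 4 weeks, and 10.1% and 8.84% by age in Mkx-KO and WT. Their medians for genotype were -0.04 at 10 weeks and 0.08 at 4 weeks, with a range from -0.20 to 0.22 at 10 weeks and from -0.98 to 0.45 at 4 weeks. The receptor genes Rara and Rarg, named after their values were seen, showed differences of 0.03 and -0.20 at 10 weeks, and of 0.33 and 0.39 at 4 weeks. The lowest was the receptor gene Rxrg, at -0.98 at 4 weeks, also named after its values were seen.

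Of 15 genes known to respond to retinoic acid, 9 were measured at each age, and the other 6, among them Hoxb1 and Stra8, were not well above background on any array. Of these 9, 0 were at least 2-fold apart at 10 weeks and 1 at 4 weeks, against 2.41% and 3.78% of all genes, with medians of -0.00 and -0.08. This gene was Meis2, a homeobox gene, at -0.10 in Mkx-KO and -1.07 in WT at 10 weeks, and at -3.56 in Mkx-KO and -0.13 in WT at 4 weeks. It differed by 0.97 at 10 weeks and -3.43 at 4 weeks, and its second probe gave 0.98 and -3.33. Forebrain neuron markers had medians of 1.999 and -2.91 in the same comparisons, over 8 and 7 measured genes. Their part in the Meis2 result was not tested. Its relative Meis1, named for an age difference of 1.73 in Mkx-KO and 0.88 in WT, differed by 0.28 and -0.57 for genotype. Dhrs3, whose product returns retinal to retinol and which is induced by retinoic acid, stands in 2 of the lists and differed by -0.08 and 0.13. Its second probe, well above background on all arrays, gave 0.43 and 0.36, higher in Mkx-KO at both ages.

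**Figure D5:**
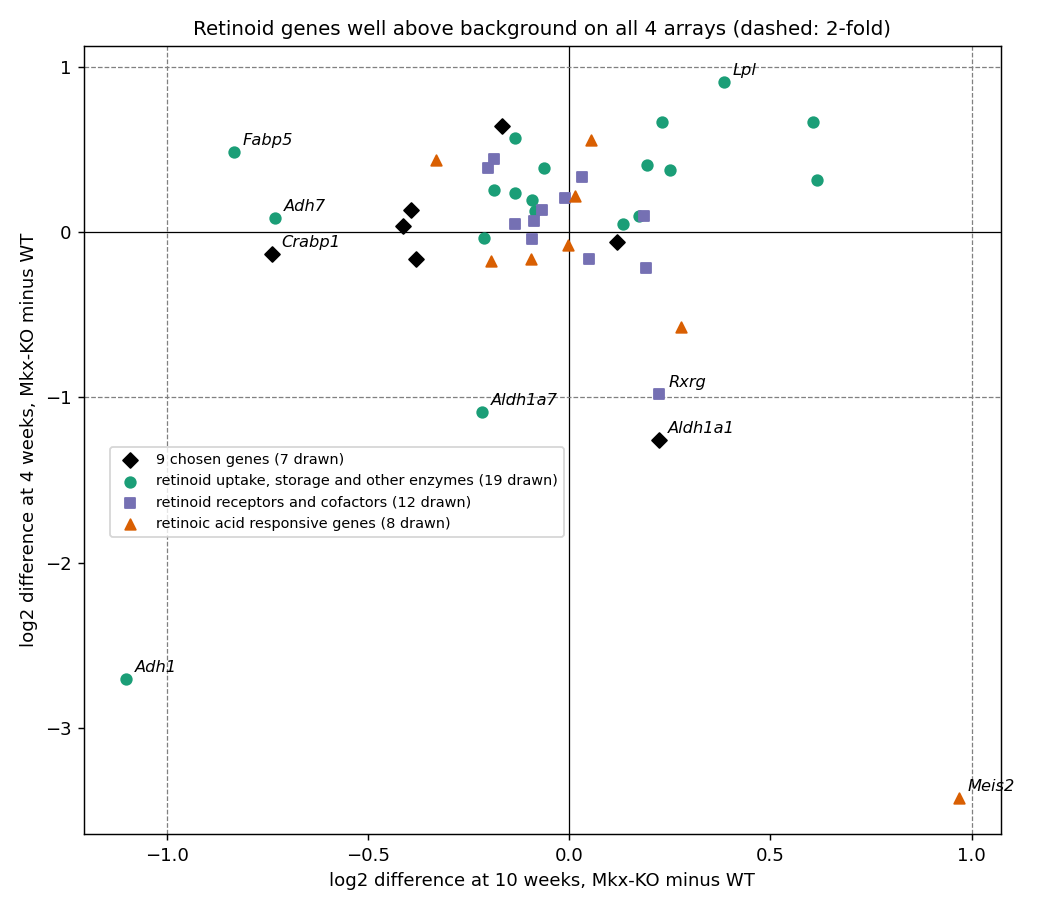
Log2 difference between Mkx-KO and WT at 10 weeks (x axis) and at 4 weeks (y axis) for retinoid genes well above background on all 4 arrays; each point is 1 gene and dashed lines mark 2-fold. Most genes lie within 2-fold of 0 on both axes, while Adh1, Aldh1a1, Aldh1a7 and Meis2 lie below -1 at 4 weeks; Cyp26a1 is not drawn because it was not well above background at 10 weeks.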

How the data were processed

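RNA of 4 mouse tissue samples was read on 4 one-colour arrays that, per the file headers, lay on 1 slide; Agilent Feature Extraction 11.5.1.1 turned the scans into values. The deposited intensity values are the authors' scanner output: a processed signal, background-subtracted and spatially detrended by that software, with its error estimate, and median pixels of spot and local background. The deposited series table holds intensity that is proportional to the processed signal, with a factor for each array (2.08 for Mkx-KO and 1.81 for WT at 10 weeks, 1.54 and 1.64 at 4 weeks); how these were chosen is not given in the sources used here, and no gene-wise centring was applied. Column medians were 87.0, 87.0, 56.8 and 62.2 in that order.

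Spots marked as outliers (60 to 77 per array) were left out, log2 values were averaged over the spots of a probe, and each array's 75th percentile over probes other than controls was subtracted. No spot was saturated, and 61.8% to 66.6% of spots were well above background. RefSeq accessions named 32989 of 56605 probes, and the probe with the highest mean signal stood for its gene. Since the array annotation uses mm9 and the RefSeq tables GRCm38.p6, only promoter windows carry positions. With 1 array per group no test was run; a gene was called at 2-fold. Where 1 array was not well above background, the bound used the lowest level above background there. The calculation was tested on simulated data.

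The 9 genes and all lists were chosen with earlier results of these data known. Named were the 9 genes, Mkx, genes of the 3 retinoid lists called at least 2-fold apart by genotype (up to 6 per list) and up to 3 more called by age, 2 markers per list with the highest mean level, and the 3 genes nearest in pattern to the up to 3 genes of widest range; some genes that this rule or a list holds are not reported here. Alternatives were normexp background correction (limma 3.58.1 in R 4.3.3), 4 other scalings, the mean over probes, 2 background filters and 3 fold thresholds. Figures were drawn with matplotlib 3.10.9, and the rest ran in pandas 2.3.3 and numpy 2.4.6 under Python 3.11.15.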

Additional observations from a re-analysis of the deposited data

Results flagged for a closer look

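Aldh1a1 differed between the genotypes in opposite directions at the 2 ages, by 0.22 at 10 weeks and -1.26 at 4 weeks (Mkx-KO minus WT), each beyond its technical error of 0.20. This difference between the ages was not tested, since each value rests on 1 pair of arrays. The value at 10 weeks exceeded the technical error only narrowly and was -0.03 without scaling between arrays, whereas the value at 4 weeks lay between -1.29 and -1.15 under every scaling and background correction tried.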

How the results depend on the processing

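The 29 measured differences of the 8 genes were recomputed under 6 alternatives. Of these 174 values, 139 moved by less than 1 technical error and 35 by more, and 0 turned the sign of a called difference. Some uncalled differences changed sign, among them those of Rarb by age, which were beyond 1 technical error. Most of those that moved came from the values with no scaling and from the deposited table. Without scaling, the median difference of all genes was -0.25 and 0.16 for genotype at 10 and 4 weeks, in place of 0.01 and 0.06. For age in Mkx-KO and WT it was -0.30 and 0.12, in place of -0.15 and -0.10. In the deposited table the age medians were 0.14 and 0.26. The count of genes at least 2-fold apart by genotype at 10 weeks was 1 at a 1.5-fold threshold, in place of 0. At 4 weeks it was 1 in place of 2 with normexp, with the filter on all arrays and at 3-fold; the filter on all arrays leaves out Cyp26a1, and normexp puts it at 0.86, its other alternatives lying up to 2.31. The count by genotype at 4 weeks was 3 at a 1.5-fold threshold. By age in Mkx-KO it was 4 at 1.5-fold, 3 with no background filter and 0 at 3-fold, in place of 2. By age in WT, in place of 0, it was 1 in the deposited table, 1 with no scaling, 1 with no background filter and 2 at 1.5-fold. Rdh10 passed in the first 2 of these at 1.22 and 1.07. Relative to the median of all genes, Rdh10 lay between 0.91 and 1.003 over the 7 settings, on either side of 2-fold. The mean over 3 probes put Rarb at 0.18 for genotype at 4 weeks, in place of -0.06. By age it put Rarb at 0.33 in place of -0.21 in Mkx-KO, and at 0.40 in place of -0.39 in WT. This mean includes the dimmest Rarb probe, which was well above background on the Mkx-KO array of 10 weeks only. The second Rarb probe, well above background on all arrays, gave -0.47 and -0.30. No paired analysis was possible because each group has 1 array. The Mkx-KO array of 4 weeks cannot be left out, since the comparison at that age then has none. Depth limits Cyp26a1, whose spots of 10 weeks were not well above background.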
